A study of Mus musculus with 6 samples.

Results

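The genes described here encode the nuclear pore and the soluble receptors that carry cargo through it. They were taken by name from the deposited table: every protein-coding row whose symbol is Nup, Kpna, Kpnb, Ipo, Xpo or Tnpo followed by digits. The rule used no measured value, but it was set with earlier results of these data known. It found 43 of the 25353 genes in the table, 21 of them nucleoporins and 22 transport receptors. Fully grown oocytes at the germinal vesicle (GV) stage, in which the large nucleus is still intact, were collected from C57BL/6J mice that were wild type (WT) or knockout (KO), 8 weeks old according to the study's design. Each of the 6 RNA-seq libraries, 3 WT and 3 KO, was made from 5 pooled oocytes with the Smart-Seq2 method. The labels do not settle which mitofusin was deleted: the study's title and design name Mfn2, while the genotype of the samples names Mfn1. The age field of the samples likewise reads P1 rather than 8 weeks. Whether the deletion was driven by a Cre, and in which cells, is not given in the sources used here. Mitofusins are GTPases of the outer mitochondrial membrane that fuse mitochondria.

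The nuclear pore is a ring-shaped channel in the nuclear envelope, built from scaffold nucleoporins and lined by nucleoporins with flexible phenylalanine-glycine (FG) repeats that hold back large molecules. Importins and transportins bind cargo in the cytoplasm and release it in the nucleus when they meet the GTPase Ran in its GTP-bound form, and exportins bind cargo together with Ran-GTP and release it outside. In the GV oocyte transcription largely stops as growth ends, and the stored mRNAs and proteins carry the cell through maturation, when the envelope breaks down, and into the early embryo.

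Among the 22 transport receptor genes, 3 rose in the KO oocytes and 0 fell, where 1.87% of all 18762 tested genes were called higher and 1.41% lower. The count of 3 was 0 to 3 when a library was left out, and 1 after a correction for GC content and length. The 3 were Kpnb1, which encodes importin beta, the partner of importin alpha in the classical import pathway; Tnpo1, which encodes transportin 1, the importer of RNA-binding proteins such as hnRNP A1; and Ipo9, which encodes importin 9, a carrier of core histones. Their fold changes were 0.48 ± 0.12, 0.50 ± 0.12 and 0.66 ± 0.15 on the log2 scale (KO over WT, ± SE, n = 3 libraries a group). Of the 21 nucleoporin genes 0 passed the same test in either direction, a count near those shares of all genes. Whether receptors and nucleoporins differed from each other was not tested.

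The DNA just upstream of the 3 genes that rose is shown here because these are the members that passed the test. Each sequence is the 250 bases before the RefSeq transcription start in the build GRCm38.p6, read 5′ to 3′ on the strand of the gene, which is the minus strand for all 3. Capitals mark matches, on either strand, to the CCAAT box (CCAAT) or the GC box (GGGCGG).
Ipo9, chr1:135430500-135430749: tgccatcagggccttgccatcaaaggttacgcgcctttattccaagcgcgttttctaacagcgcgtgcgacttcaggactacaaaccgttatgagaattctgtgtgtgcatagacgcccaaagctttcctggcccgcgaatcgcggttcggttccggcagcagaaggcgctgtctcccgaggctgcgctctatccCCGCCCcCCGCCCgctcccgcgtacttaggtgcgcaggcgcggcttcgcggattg
Kpnb1, chr11:97187893-97188142: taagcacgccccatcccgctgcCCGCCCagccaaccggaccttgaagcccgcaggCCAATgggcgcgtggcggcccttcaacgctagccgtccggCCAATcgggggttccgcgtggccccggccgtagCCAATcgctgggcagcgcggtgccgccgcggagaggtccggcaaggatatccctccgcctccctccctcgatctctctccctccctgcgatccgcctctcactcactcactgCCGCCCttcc
Tnpo1, chr13:98926385-98926634: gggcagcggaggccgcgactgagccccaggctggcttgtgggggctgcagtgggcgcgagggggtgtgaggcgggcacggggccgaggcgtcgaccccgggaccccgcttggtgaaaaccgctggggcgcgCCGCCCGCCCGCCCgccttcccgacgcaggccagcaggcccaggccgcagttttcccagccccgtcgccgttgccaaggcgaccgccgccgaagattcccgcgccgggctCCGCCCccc
All 3 windows held the GC box, with 2 matches in Ipo9, 2 in Kpnb1 and 4 in Tnpo1, and Kpnb1 also held 3 CCAAT boxes. Across the 34 members with a promoter in the RefSeq table, 22 held GGGCGG and 18 held CCAAT. For members the start nearest the deposited 5′ end of the gene was used. For Kpna7, counted among those with CCAAT, it lay 74394 bases from that end. Among all 27025 genes with such a window, 32.9% held GGGCGG and 34.5% held CCAAT. There the first start listed for each gene was used, and the genes were not limited to protein-coding ones as the members are. The shares are therefore not a like comparison, and a difference between them was not tested. The TATA box TATAAA was in 2 of the 34 members and 13.0% of all windows, the E-box CACGTG in 5 and 6.05%, and the ETS-type motif CTTCCGG in 6 and 7.05%. Motifs were searched on both strands with overlaps counted, none of the 5 motifs lies inside another, and a match is a string of letters and not a known binding site. The share of G and C bases was 78.0% in the Tnpo1 window, 70.8% in that of Kpnb1 and 60.8% in that of Ipo9.

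The libraries held 6450191 to 7992598 reads assigned to genes, so 3 reads, the limit that a count of 0 allows, correspond to 0.375 to 0.465 CPM. Mfn2 fell, with normalized counts of 25.5, 38.1 and 32.3 in the WT and 5.25, 5.28 and 4.50 in the KO libraries, a log2 fold change of -2.44 ± 0.38 (limma adjusted p = 0.00487). The WT mean of Mfn1 was 340.4 ± 36.3 and its KO mean 386.4 ± 10.3 (SD over 3 libraries), which did not pass (log2 fold change 0.19, limma adjusted p = 0.482). All 10 oocyte markers were present, and none was called. The log2 fold changes of Zp1, Zp2 and Zp3 were -0.61, -0.66 and -0.67, that of Ddx4 was 0.55, and the others lay between -0.04 and 0.22. The summed normalized counts of the 10 ran from 109800 to 133300 in WT and from 84710 to 125300 in KO, lowest in KO replicate 1. That library stood apart from its group: its counts differed from the other KO libraries by 10.1 and 14.5 chi-square units per degree of freedom, against 4.73 to 5.79 for the other same-group pairs. Of the markers of other ovarian cells, 3 were called lower in KO and 0 higher. Of all tested genes 1.41% were called lower and 1.87% higher. Markers too low for the filter, such as Col1a1, Acta2, Cd74 and Lyz2, were not tested and could not be called either way. The 10 granulosa and theca markers in the table summed to 473 to 2511 in WT and 356 to 494 in KO, and these ranges overlapped. Cyp11a1 and Lhcgr were called lower, while Fshr had a log2 fold change of 0.82 and Inha of -0.13, neither past the threshold. The 6 stroma markers in the table summed to 26.8 to 152 in WT and 8.09 to 11.6 in KO, with Dcn called lower. Col1a1, Col1a2 and Col3a1 were at 0 in every KO library and also near or at 0 in WT, where Col1a1 stood at 1.11, 0.93 and 0, and Col1a2 and Col3a1 each at 7.76, 0 and 0. The 5 immune markers summed to 23.3 to 78.7 and 12.7 to 17.9, with Adgre1, Cd74 and Lyz2 at 0 in KO. Of these, Adgre1 was at 0, 0 and 0.923 in WT, Cd74 at 24.4, 0 and 10.2, and Lyz2 at 24.4, 0 and 4.62. The 4 endothelial markers summed to 193 to 246 in WT and 168 to 256 in KO, and Cdh5 was at 0 in every library but WT replicate 1, where it stood at 1.11. WT replicate 1 was highest for the granulosa, stroma and immune sums. The part of these other cells in the results on transport genes was not tested, and in pooled cells fewer cells of a type and less RNA per cell cannot be told apart.

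Levels of different genes were compared as RPKM, reads scaled to transcript length in kilobases and to library size. All 43 members had reads, and in WT their levels spanned a 5770-fold range. 9 members lay above the 90th percentile of the 16692 protein-coding genes ranked, 31 above the median, and 5 below the 30th percentile, by their mean over all libraries. Kpna7 was highest at 334 RPKM in WT, the 98.5th percentile, and Kpna4 lowest at 0.058, the 20.4th percentile. The WT levels of Nup37 (138 ± 15.8), Nup85 (123.3 ± 6.88) and Nup35 (123.2 ± 12.05) followed each other in this order, then, after a gap, those of Nup88 (68.9 ± 4.74), Nup54 (68.0 ± 6.78) and Kpna3 (62.7 ± 4.44), and within each of these runs neighbours differed by less than the larger of their SDs. The order of the members moved by a median of 2 places, and at most 8, when coding length replaced transcript length.

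**Figure D1:**
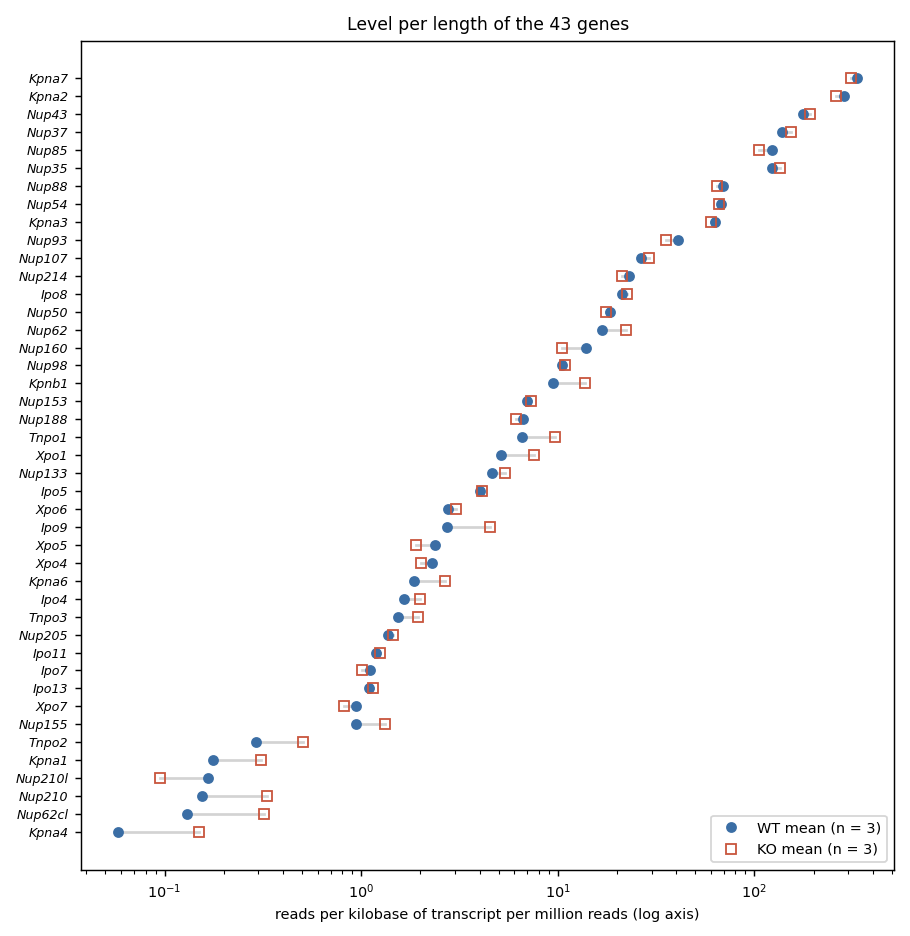
Level of each of the 43 genes in the WT and KO groups as RPKM on a log axis, ordered by the WT level, with a circle for the WT mean and a square for the KO mean of 3 libraries. Kpna7 and Kpna2 lead at 334 and 285 RPKM in WT, while Kpna4, Nup62cl, Nup210, Nup210l and Kpna1 lie below 0.2 RPKM in WT.

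The importin alpha genes, whose products read the classical import signal and bind importin beta, held both the highest and the lowest levels. Kpna7, the importin alpha that mouse oocytes and early embryos are known to use, had normalized counts of 6047, 5478 and 6203 in WT and 4119, 5524 and 6178 in KO. The groups overlapped, and KO replicate 1 alone was low; its log2 fold change of -0.18 ± 0.13 did not pass (limma adjusted p = 0.506) and was -0.01 without that library. Kpna2 stood at 285 RPKM in WT and did not pass (log2 fold change -0.20, limma adjusted p = 0.381). Its count is uncertain, since 92.5% of the 75-base windows along its transcripts also match processed pseudogenes with at most 1 mismatch. Kpna3 followed at 62.7 RPKM in WT (log2 fold change -0.12).

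Per length, Kpna7 made up 48.9% ± 0.786 of the importin alpha level in WT and 48.8% ± 4.06 in KO (SD, n = 3), Kpna2 41.6% and 41.1%, and Kpna3 9.20% and 9.63%. Kpna6 contributed 0.273% in WT and 0.427% in KO. By coding length instead of transcript length the shares of Kpna6 were 0.623% and 0.967%, and that of Kpna3 in WT was 15.4%. The normalized counts of Kpna6 were 76.5 ± 11.3 in WT and 105.2 ± 18.2 in KO, with a log2 fold change of 0.45 ± 0.20 that did not pass (limma adjusted p = 0.254). Kpna1 and Kpna4 averaged between 3.70 and 10.8 normalized counts in both groups, and their log2 fold changes of 0.99 ± 0.60 and 1.10 ± 0.62 did not pass either.

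The importin beta family binds Ran and the pore directly. Kpnb1 (chr11:97159714-97187881, minus strand) was at 399, 435 and 366 normalized counts in WT and at 592, 569 and 517 in KO. Every KO library was above every WT library, and the group means were 400.0 ± 34.8 and 559.7 ± 38.6 (SD, n = 3). The log2 fold change of 0.48 ± 0.12 passed with a limma adjusted p of 0.0405, over 18762 genes tested. Of its 75-base windows 5.58% lie on sequence shared with the antisense gene Gm11583, and reads of the pair cannot be told apart without strand.

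Ipo9 (chr1:135382312-135430499, minus strand) had 138, 116 and 115 normalized counts in WT and 186, 195 and 203 in KO. The groups were apart, with means of 123.1 ± 12.5 and 194.9 ± 8.67 (SD, n = 3), and the log2 fold change of 0.66 ± 0.15 passed (limma adjusted p = 0.029). None of the Ipo9 windows was shared with another gene.

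Ipo8, which carries SMAD proteins among other cargoes, was the most abundant member of the importin beta family per length, at 21.3 RPKM in WT. Its normalized counts were 780, 863 and 825 in WT and 921, 804 and 764 in KO, so the groups overlapped (log2 fold change 0.01). In WT the family's other levels per length were 9.43 RPKM for Kpnb1, 4.03 for Ipo5, 2.73 for Ipo9, 1.66 for Ipo4, 1.19 for Ipo11, 1.11 for Ipo7 and 1.09 for Ipo13. The remaining members were Ipo4, Ipo5, Ipo7, Ipo11 and Ipo13, importers of histones, ribosomal proteins and ubiquitin-pathway enzymes among others. Their log2 fold changes lay between -0.20 for Ipo7 and 0.19 for Ipo4, and none passed. For Ipo4, 59.6% of windows are shared with the overlapping gene Gm49378. As shares of the family's level per length, Kpnb1 made up 22.1% ± 1.11 in WT and 27.4% ± 0.627 in KO, Ipo9 6.43% ± 0.629 and 9.05% ± 1.05, and Ipo8 50.1% ± 2.78 and 44.6% ± 1.27 (SD, n = 3).

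Transportins carry proteins with a proline-tyrosine signal or, in the case of Tnpo3, splicing factors rich in serine and arginine. Tnpo1 (chr13:98839019-98926384, minus strand) was measured at 395, 396 and 405 normalized counts in WT and at 628, 542 and 529 in KO. The WT values lay close together and all below the KO values, with means of 398.8 ± 5.76 and 566.3 ± 54.0 (SD, n = 3). This is a log2 fold change of 0.50 ± 0.12, past the threshold (limma adjusted p = 0.032), with 18.2% of windows shared with the pseudogene Gm6493. Tnpo2, a close relative of Tnpo1, was at 13.3, 7.44 and 10.2 in WT and 18.9, 16.9 and 15.3 in KO. The KO values were all higher, but the log2 fold change of 0.70 ± 0.39 did not pass (limma adjusted p = 0.366). Tnpo3 had a log2 fold change of 0.26 ± 0.25 with overlapping groups. Tnpo1 supplied 78.2% of the transportin level per length in WT and 79.8% in KO.

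Exportins carry cargo out of the nucleus. Xpo1, the main exporter of proteins with a leucine-rich signal, had normalized counts of 232, 215 and 218 in WT and 343, 287 and 308 in KO. All KO libraries were above all WT libraries. The log2 fold change of 0.49 ± 0.13 lay just outside the threshold (limma adjusted p = 0.0533). With whole reads the edgeR quasi-likelihood test gave an adjusted p of 0.0438 and DESeq2 0.0337. Xpo1 did not pass in the fit corrected for GC content and length (limma adjusted p = 0.108, log2 fold change 0.39). It passed in none of the 12 fits that left out a library, and over all settings tried its adjusted p ran from 0.0337 to 0.172. Xpo5, which exports precursors of microRNAs, had a log2 fold change of -0.39 ± 0.22, and those of Xpo4, Xpo6 (the exporter of actin) and Xpo7 were -0.23, 0.05 and -0.24. None of these 4 passed. In WT, levels per length were 5.12 RPKM for Xpo1, 2.77 for Xpo6, 2.38 for Xpo5, 2.28 for Xpo4 and 0.945 for Xpo7. Xpo1 made up 36.1% to 39.1% of the summed level per length of these Xpo genes in the WT libraries and 48.1% to 50.2% in the KO libraries. These shares leave out export carriers with other names, such as Cse1l and Xpot, counted below among the other carriers. Cse1l stood at 17.46 RPKM in WT and 16.95 in KO, above Xpo1 in both groups. Between groups of 3, an exact permutation test of such a share cannot go below p = 0.10, so none was run.

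**Figure D2:**
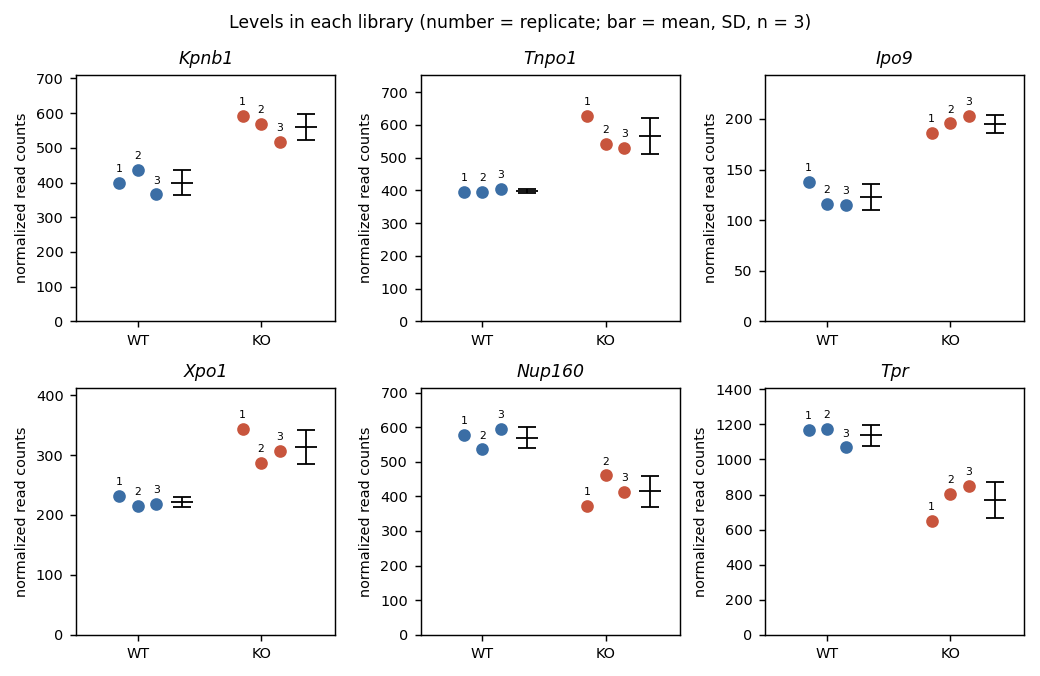
Normalized read counts of 5 transport genes and of Tpr in each library, with the replicate number above each point and the mean and SD (n = 3) beside each group. KO points lie above all WT points for Kpnb1, Tnpo1, Ipo9 and Xpo1 and below them for Nup160 and Tpr.

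The counts over the 22 receptors were as follows. The limma test called 3 higher and 0 lower, beside the 1.87% and 1.41% of all tested genes. At an unadjusted p under 0.05, 5 receptors were higher (Ipo9, Tnpo1, Kpnb1, Xpo1 and Kpna6) and 0 lower, against 9.16% and 8.83% of all genes. All KO libraries lay above all WT libraries for 5 receptors and below for 0, against 11.5% and 11.7% of all genes. The median log2 fold change of the receptors was 0.04, with 14 above 0 and 8 below, and that of all tested genes was -0.01. The edgeR test called 4 of 20 receptors higher and 0 lower (3.45% and 2.58% of all genes), and DESeq2 4 of 19 and 0 (3.72% and 3.13%). The summed normalized counts of all receptors were 14780 ± 823 in WT and 13960 ± 1062 in KO (SD, n = 3), and Kpna2, Kpna3 and Kpna7 hold most of them. The other 19 receptors, the 3 called ones included, summed to 2813 ± 97.1 in WT and 3312 ± 218 in KO. For that sum every KO library was above every WT library. It holds the called genes and Xpo1 and leaves out Kpna2, Kpna3 and Kpna7, whose log2 fold changes were below 0. The sum is therefore no separate evidence of a rise among the remaining receptors.

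Removing the trend of the fold changes on GC content and length left 1 of the 3 calls: the adjusted p was 0.0404 for Ipo9, 0.0522 for Tnpo1 and 0.0721 for Kpnb1, with log2 fold changes of 0.58, 0.42 and 0.41. That step also moved the split of all calls from 351 higher and 264 lower to 295 higher and 332 lower, that is from 57.1% to 47.0% higher. The calls also changed when single libraries were left out. So did the counts over all genes, which then ran from 39 to 459 higher and from 30 to 430 lower. Without KO replicate 1, which stood apart, all 3 passed, with adjusted p-values of 0.0458 for Kpnb1, 0.042 for Tnpo1 and 0.0209 for Ipo9. With WT replicate 1 left out they were 0.113, 0.102 and 0.0496, with WT replicate 2 left out 0.0798, 0.108 and 0.108, and with WT replicate 3 left out 0.168, 0.109 and 0.125. Leaving out KO replicate 2 gave 0.117, 0.0709 and 0.0835, and leaving out KO replicate 3 gave 0.0479, 0.0426 and 0.0786. Each library was left out both with the filter on low values applied again and with the same genes tested; the values above are from the former. In the latter, Ipo9 reached 0.0642 without WT replicate 1, and Kpnb1 and Tnpo1 reached 0.0819 and 0.0741 without KO replicate 3, so each gene passed in 3 of 12 fits. In these 12 fits the log2 fold changes stayed between 0.42 and 0.55 for Kpnb1, 0.42 and 0.55 for Tnpo1, and 0.62 and 0.74 for Ipo9.

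**Figure D3:**
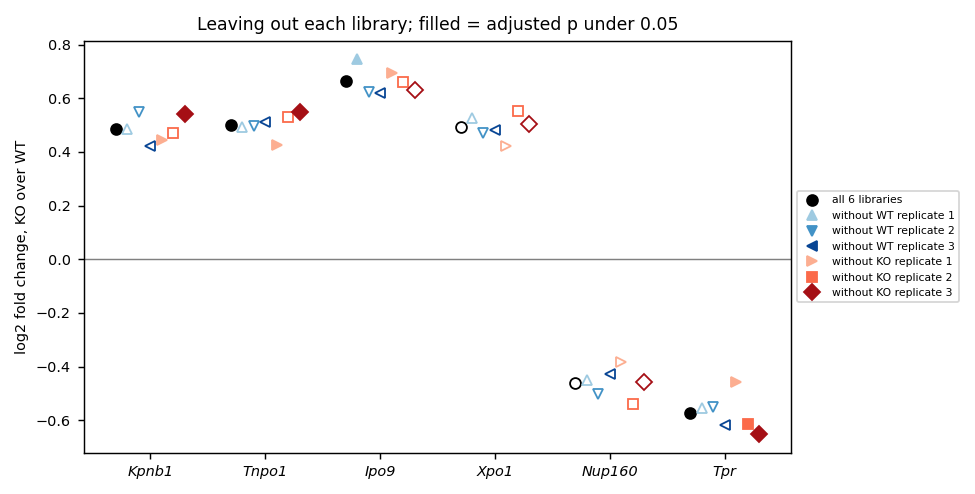
Log2 fold change (KO over WT) of 5 transport genes and of Tpr with all 6 libraries (circle) and with each library left out in turn and the filter applied again. Filled symbols have a limma adjusted p under 0.05: the fold changes hold their sign in every fit shown, while Kpnb1, Tnpo1 and Ipo9 lose the call when certain single libraries are left out.

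The nucleoporins follow by their place in the pore. In the Y complex, the scaffold of the outer rings, Nup43 was the most abundant per length at 176 RPKM in WT. Its normalized counts were 1620, 1613 and 1660 in WT and 1752, 1778 and 1604 in KO, with overlapping groups and a log2 fold change of 0.07. Nup160 (chr2:90677215-90736328, plus strand), a large subunit of this complex, had normalized counts of 578, 536 and 595 in WT and 372, 461 and 412 in KO. All KO libraries were below all WT libraries, and the log2 fold change of -0.46 ± 0.12 lay just outside the threshold (limma adjusted p = 0.0507). It passed with edgeR (0.0394), with DESeq2 (0.0204) and in the fit corrected for GC content and length (0.0195, log2 fold change -0.54). It passed in none of the 12 fits that left out a library, and over all settings its adjusted p ran from 0.0195 to 0.187.

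The other Y complex genes did not pass. Nup107 had normalized counts of 605.5, 582.1 and 584.5 in WT and 613.5, 639.2 and 627.7 in KO, apart by a narrow margin (log2 fold change 0.09 ± 0.11). Nup85 had a log2 fold change of -0.29 ± 0.12 (limma adjusted p = 0.22), which was -0.15 without KO replicate 1, its lowest library at 1337. Nup133 and Nup37 had log2 fold changes of 0.15 and 0.08, neither past the threshold. Per length the WT levels of this complex ran from 176 RPKM for Nup43 through 138 for Nup37, 123.3 for Nup85, 26.3 for Nup107 and 13.9 for Nup160 to 4.60 for Nup133.

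The inner ring holds the scaffold to the membrane and anchors the central channel. Nup35 was its most abundant member per length, at 123.2 RPKM in WT, with normalized counts of 1229, 1388 and 1541 in WT and 1570, 1445 and 1375 in KO. The groups overlapped (log2 fold change 0.08), and 93.3% of its windows also match the pseudogene Gm4353, so its level is uncertain. Nup155 was at 58.8, 49.3 and 51.7 in WT and 70.4, 70.8 and 73.7 in KO, all higher, with a log2 fold change of 0.42 ± 0.21 that did not pass (limma adjusted p = 0.302). Nup93, a link between the scaffold and the channel, had a log2 fold change of -0.30 ± 0.15 (limma adjusted p = 0.319), and -0.08 without KO replicate 1. Nup188 and Nup205, large related scaffold proteins, had log2 fold changes of -0.17 and 0.02. The WT levels per length of the other inner ring genes were 41.0 RPKM for Nup93, 6.65 for Nup188, 1.37 for Nup205 and 0.944 for Nup155.

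The central channel genes encode FG-repeat proteins. Nup54 led them per length at 68.0 RPKM in WT, with normalized counts of 1083, 1063 and 1316 in WT and 1072, 1060 and 1100 in KO. Its groups overlapped (log2 fold change -0.09), and 28.3% of its windows are shared with Gm15790. Nup62, its partner in the channel, averaged 330.0 ± 49.7 in WT and 416.9 ± 69.9 in KO, a log2 fold change of 0.33 ± 0.15 (limma adjusted p = 0.263). Nup98, an FG nucleoporin that binds the export factor Rae1, had a log2 fold change of -0.01. The related gene Nup62cl had 5, 0 and 0 reads in WT and normalized counts of 3.15, 1.06 and 8.99 in KO, and its log2 fold change of 1.23 ± 0.81 did not pass.

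On the cytoplasmic face, where exported mRNA leaves the pore, Nup88 was at 1263, 1103 and 1289 normalized counts in WT and 1027, 1122 and 1140 in KO. The groups overlapped, with a log2 fold change of -0.15, and its partner Nup214 had -0.17. In the nuclear basket, Nup50, a cofactor in the release of import cargo, was at 595.5, 643.5 and 658.4 in WT and 551.5, 595.9 and 582.7 in KO, and its log2 fold change was -0.13. Nup153 had a log2 fold change of 0.01. Of the membrane nucleoporins, Nup210l was at 6.65, 4.65 and 9.23 in WT and 5.25, 4.23 and 1.80 in KO (log2 fold change -0.76 ± 0.53). Nup210 was at 6.65, 11.2 and 5.54 in WT and 17.9, 13.7 and 17.1 in KO. The KO values of Nup210 were all higher, with a log2 fold change of 1.02 ± 0.42 that did not pass (limma adjusted p = 0.21), and the counts were near the low end of the table.

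Over the 21 nucleoporins the limma test called 0 higher and 0 lower. At an unadjusted p under 0.05, 2 were higher (Nup62 and Nup210) and 2 lower (Nup160 and Nup85). All KO libraries lay above all WT libraries for 3 (Nup107, Nup155 and Nup210) and below for 1 (Nup160), and the shares of all tested genes given above for the receptors apply here too. With edgeR 0 of 19 were higher and 1 lower, and with DESeq2 0 of 18 and 1, Nup160 in both. The median log2 fold change was 0.01, with 11 above 0 and 10 below. The summed normalized counts of the nucleoporins were 14140 ± 680 in WT and 13480 ± 258 in KO (SD, n = 3), and the group ranges overlapped.

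**Figure D4:**
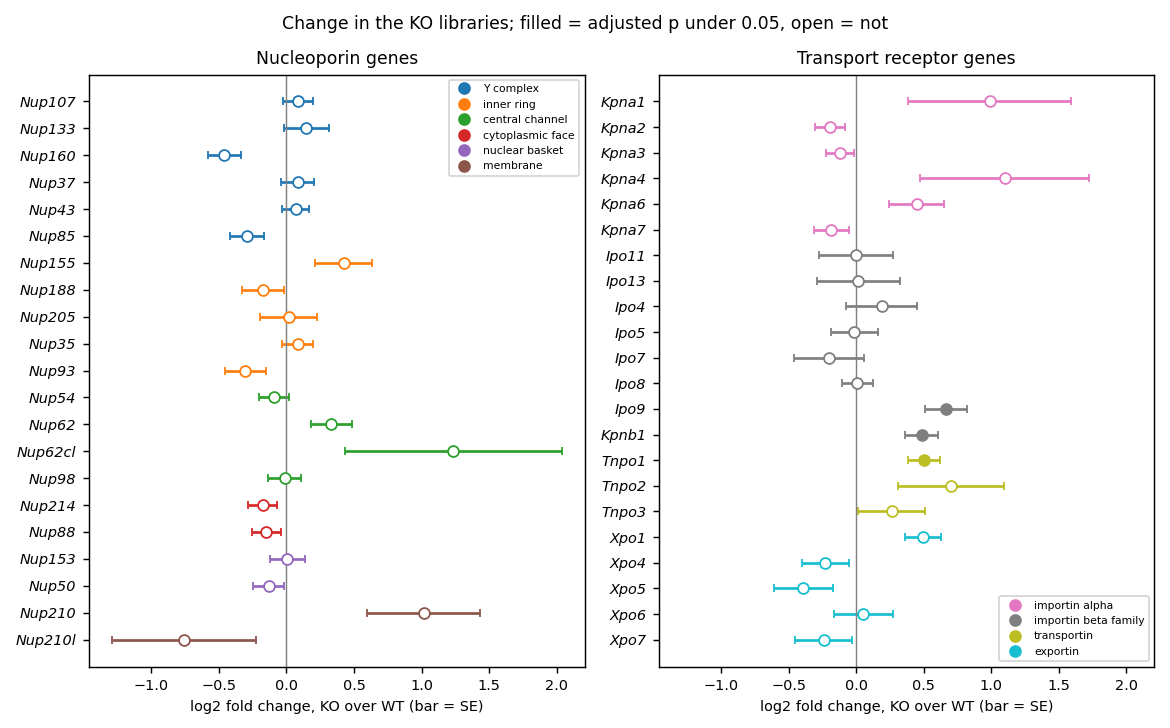
Log2 fold change (KO over WT) of each of the 43 genes with its SE, coloured by role, for nucleoporins and transport receptors. The filled points are Kpnb1, Tnpo1 and Ipo9, and the widest bars belong to genes with few reads such as Nup62cl, Nup210l, Kpna1 and Kpna4.

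Other genes of the pathway were read from the same test, in which 1.87% of all genes were called higher and 1.41% lower. Of 12 pore genes with other names, 0 rose and 1 fell. It was Tpr, the long coiled-coil protein of the nuclear basket, at 1169, 1174 and 1069 normalized counts in WT and 650, 804 and 849 in KO. All KO values were lower, with a log2 fold change of -0.57 ± 0.12 (limma adjusted p = 0.0172). Leaving out WT replicate 1, 2 or 3 raised the adjusted p to 0.0676, 0.083 or 0.0649, while leaving out KO replicate 1 gave 0.0155. Leaving out KO replicate 3 gave 0.0196, or 0.0545 with the same genes tested.

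Of 7 genes of the Ran cycle 0 passed, near the shares of all genes. Ran itself was at 970, 906 and 826 in WT and 1003, 1296 and 1384 in KO, all higher but outside the threshold (log2 fold change 0.44 ± 0.13, limma adjusted p = 0.07, DESeq2 0.0226). KO replicate 1 was its lowest KO library, and leaving it out gave a log2 fold change of 0.58 that passed (limma adjusted p = 0.00485). Over all genes that fit called 459 higher and 430 lower, against 351 and 264 with all libraries. Without any other library Ran did not pass (limma adjusted p = 0.113 to 0.258). Ranbp3, a cofactor of Xpo1, had a log2 fold change of -0.27 (limma adjusted p = 0.29).

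Of 9 other carriers 0 passed, and the smallest p-values belonged to Phax, an adaptor for the export of small nuclear RNAs (log2 fold change 0.41, limma adjusted p = 0.0725, DESeq2 0.0413), and Nxt1, a cofactor of mRNA export (0.20, limma adjusted p = 0.308). Of 20 genes of mRNA export 0 passed, again near the shares of all genes. The smallest p-values there were those of Thoc5, a subunit of the THO complex (log2 fold change -0.44, limma adjusted p = 0.177), and Chtop, an export adaptor (0.34, limma adjusted p = 0.23). Without KO replicate 1 Chtop passed (limma adjusted p = 0.0354), and without any other library it did not (limma adjusted p = 0.28 to 0.512).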

How the data were processed

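The deposited table holds signal values per gene, which the authors made by dividing read counts by a size factor for each library; the file headers name Partek and DESeq2. The submitters' processing notes list the tools STAR, cutadapt, FastQC, DESeq2 and DESeq, without versions, and the builds mm10 and GRCm38. Dividing by the value of 1 read gave whole reads for 100.0% of values within a tolerance of 0.1 reads. Deposited gene ends lie 1 base past those of GENCODE for 98.1% of matched genes and are printed 1 lower.

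Values were tested with limma (3.58.1, R 4.3.3) with a mean-variance trend on log2(value + 1), a scale that understates changes of low genes, for genes that reached a value of 1 in 3 or more libraries. P-values were Benjamini-Hochberg adjusted over all 18762 genes, with a threshold of 0.05. All 43 members passed that filter. Reads were tested with edgeR 4.0.16 and DESeq2 1.42.0 as alternatives, and the fits were run on simulated data. The changes planted there were larger than those of Kpnb1, Tnpo1 and Ipo9, so that run does not show how well changes of their size are found. The labels do not say that pools came from separate animals, so p-values measure only the spread between these pools. Members and lists were chosen with earlier results of these data known. Values in each library are given for members past the threshold and for the most abundant member of each role; Nup160 and other members given by library were chosen after their values were seen. RPKM used GENCODE transcript lengths. Windows of 75 bases, the read length, were taken every 25 bases to find shared sequence. Promoters came from RefSeq (GRCm38.p6), which matched 34 of 43 members. The floor of 3 reads covers counting error only, while the SEs and SDs also hold the spread between the pools.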

Additional observations from a re-analysis of the deposited data

How the results depend on the processing

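The log2 fold changes of Kpnb1, Tnpo1, Ipo9, Xpo1, Nup160 and Tpr kept their direction under every alternative tried. The 3 receptor calls also held with a pseudocount of 0.5 or 5, with TMM scaling, with no filter, with a filter of 5 CPM, with edgeR and with DESeq2. Nucleoporins called lower went from 0 to 1, Nup160, with a pseudocount of 5, no filter, the 5 CPM filter, edgeR, DESeq2 and the GC and length correction. Receptors called higher were 1 with that correction. Leaving out a library gave 0 to 3 receptors called higher, 39 to 459 genes called higher and 30 to 430 called lower in all, against 351 and 264. The labels do not say that replicate numbers pair the samples. Deviations of same-numbered libraries correlated at -0.08, -0.02 and -0.04, and those of differently numbered libraries at -0.05 to 0.08. With 3 libraries a group these values do not settle whether the samples were paired. With the replicate block 0 receptors and 0 nucleoporins were called, and of all genes 246 were higher and 175 lower; the block's adjusted p was 0.066 for Kpnb1, 0.0613 for Tnpo1, 0.0572 for Ipo9 and 0.0285 for Tpr. The causes of these shifts were not tested. With 3 pools a group and 6 members under 20 normalized counts in both groups, changes of low genes such as Nup210, Kpna1 and Tnpo2 had SEs of 0.39 to 0.60 on the log2 scale or, for Nup62cl, 0.81.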
